A study of Schizosaccharomyces pombe with 50 samples.

Results

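Trimethylation of lysine 4 of histone H3 (H3K4me3) was compared with total histone H3, gene by gene, in growing fission yeast. The comparison used 6 of the 50 libraries of the series: H3K4me3 V replicates 1 to 3, each divided by the H3 V library of the same number. V stands for vegetative cells, taken in mid-log growth in PMG, a minimal medium that contains nitrogen. All libraries came from Schizosaccharomyces pombe strain Hu3112, whose genotype is given as mat1-M smt-0 pht1-myc, so that the histone variant H2A.Z, the product of pht1, carried a Myc tag in every sample. The second condition of the study, Q cells, was the same strain after 24 h in PMG without nitrogen, and it is used here only beside the values in V cells. The libraries were chosen by their labels, and all windows of 2 tables were taken whatever their values. Each gene has an ORF window, which covers the gene with flanks of 200 bp but ends after the exon with the lowest coordinate in genes of several exons (1241 plus-strand and 1215 minus-strand coding genes), and a TSS window of 400 bp. Of 6613 windows in each table, 6574 ORF windows and 6554 TSS windows held enough signal to be tested.

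H3K4me3 is laid down by Set1 within a multi-subunit complex (COMPASS, or Set1C) that travels with RNA polymerase II early in transcription. In yeasts as in other eukaryotes the mark is known for marking the nucleosomes at the start of transcribed genes, and it fades toward the gene's 3′ end. Total H3 measures how much nucleosome is present in a window, so the ratio of the mark to H3 separates the mark from nucleosome density.

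The values are reads divided by a size factor for the library, and each ratio is given as log2(H3K4me3 + 1) minus log2(H3 + 1), centred on the median window of that pair. A value of 0 is therefore the median window, not absence of the mark, and a shift of the mark across the whole genome would leave no trace in it. Windows were called above or below the median at a Benjamini-Hochberg adjusted p under 0.05 in limma with a log2 ratio above 1 or below −1. ChIP reads carry no strand, so overlapping genes and antisense transcripts share their reads.

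Depth and the libraries that stood apart are given first. The ORF windows held 1700594, 5395526 and 5675721 reads in H3K4me3 V replicates 1, 2 and 3, and 9490762 to 11029949 reads in the H3 V libraries. The shallow H3K4me3 V replicate 1 gave a narrower spread of ratios, with an SD over ORF windows of 0.93 against 1.24 and 1.27 in the other pairs. The ratios correlated between pairs across ORF windows with r from 0.929 to 0.975, as a description over windows. Mitochondrial DNA holds no nucleosomes, and its 38 ORF windows had median ratios of 1.84, −0.78 and 1.26 in the 3 pairs, so the background of these libraries differed between replicates. Without replicate 2 their median was 1.53. The H3K4me3 library of Q cells replicate 1 differed from the H3 library of Q cells replicate 1 by less than sampling noise, with a chi-square of 0.9 per degree of freedom over ORF windows. The same statistic was 75.8, 212 and 237 for the 3 pairs of V cells, so the V libraries were distinct. They were not the only ones: among libraries of Q cells replicate 1, 6 pairs of different targets over ORF windows had a chi-square under 1 per degree of freedom, from 0.69 for H3K9me2 against RNA polymerase II phosphorylated on serine 5 upward, and H2A.Z and the serine 2 form were also among them. What made these libraries alike was not tested, and the targets of such libraries rest on their labels alone.

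The promoters of 4 genes at the ends of the distribution are shown to place the letters beside the values that follow. Each run is the 120 bases before the annotated gene start in the RefSeq build ASM294v3, on the plus strand, and capitals mark matches to 3 motifs searched on both strands. The motifs were HomolD (CAGTCACA) and HomolE (ACCCT repeated directly in tandem), both known from ribosomal protein promoters of this species, and TATAAA. In rps1501 the letters run on the opposite strand, where TATAAA appears as TTTATA.
rps403, chrI:3399121-3399240: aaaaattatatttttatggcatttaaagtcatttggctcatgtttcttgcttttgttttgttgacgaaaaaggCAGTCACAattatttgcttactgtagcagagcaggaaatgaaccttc
rps1501, chrIII:798124-798243: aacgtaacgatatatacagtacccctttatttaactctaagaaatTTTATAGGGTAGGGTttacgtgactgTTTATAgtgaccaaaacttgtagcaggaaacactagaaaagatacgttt
mel1, chrI:5499662-5499781: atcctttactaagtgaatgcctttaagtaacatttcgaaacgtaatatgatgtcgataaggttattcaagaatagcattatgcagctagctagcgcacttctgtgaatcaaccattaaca
mde7, chrIII:155786-155905: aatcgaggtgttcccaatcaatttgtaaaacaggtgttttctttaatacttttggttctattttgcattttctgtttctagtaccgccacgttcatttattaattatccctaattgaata
The first pair carried the mark at the gene start in V cells and the second pair lacked it. In rps403 the HomolD match began 47 bases before the gene start, and in rps1501 the HomolE match began 70 bases before it and overlapped a TTTATA by 1 base. No match was found in these 120 bases of mel1 or mde7. The 4 promoters are examples and do not stand for their ends of the distribution. Within 250 bases rpl13, hht2 and rps902, also among the highest starts, had no match to any of the motifs. Among the lowest starts TATAAA began 110 bases before fah1, 240 before SPBPB21E7.10, and 147 and 149 before mde7.

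In growing cells the mark varied widely between genes. Over ORF windows the log2 ratio ran from −3.40 to 2.07, and 1293 windows were called above the median (19.7% of those tested) and 1315 below it (20%). Over TSS windows it ran from −3.62 to 2.03, with 1817 windows called above (27.7%) and 2339 below (35.7%). All 2608 called ORF windows and all 4156 called TSS windows had the same sign in the 3 pairs. The calls rest on the same 3 pairs, so this agreement was largely set by the calling rule. The median standard error of a log2 ratio was 0.109 in the ORF table and 0.182 in the TSS table. At the threshold, ctr1-antisense-1 was just inside with a TSS ratio of 1.001 and sed5 just outside with 1.00, and on the lower side dpm2 was inside with −1.001 and SPAP8A3.07c outside with −0.999.

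The TSS windows of the files do not all lie at a gene start. They span 400 bp in 6612 of 6613 cases and begin where the ORF window begins, near the lower coordinate of the gene. That start lay exactly 200 bp below the RefSeq coordinate in 4118 of 6521 matched windows. A TSS window held the RefSeq gene start for 2107 of 2490 tested plus-strand protein-coding genes (84.6%) and for 4 of 2516 minus-strand genes (0.2%), where it lies at the 3′ end. The ratio followed this difference. At plus-strand protein-coding genes the median log2 ratio was 1.04, with 1319 of 2490 windows called above (53%) and 218 below (8.76%). At minus-strand genes the median was −1.55, with 227 of 2516 called above and 1466 below. Their medians in pairs 1 to 3 were −0.95, −1.73 and −1.83. Where a 3′ end had no other annotated protein-coding start nearby (from 500 bp below to 200 bp above the gene's lower coordinate), the median was −2.33 and 1217 of 1532 windows were called below. Where another start lay in that stretch the median was −0.08, with 249 of 984 called below. Plus-strand windows with another start nearby had a median of 1.42, against 0.96 for those without. The TSS ratios named below are therefore those of plus-strand genes unless stated.

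**Figure D1:**
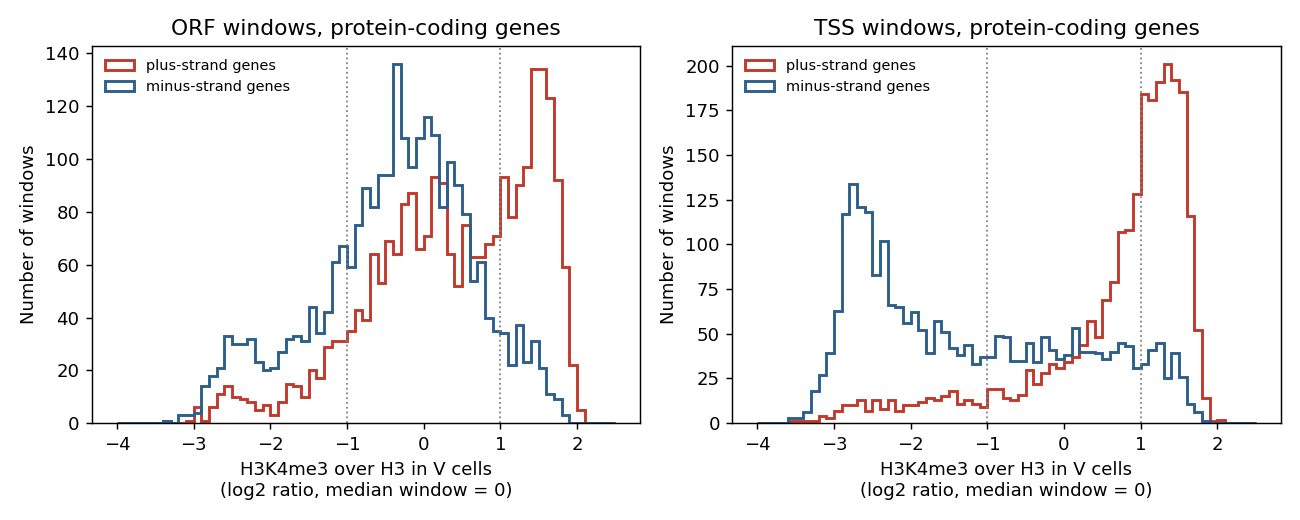
Histograms of the log2 ratio of H3K4me3 over H3 in V cells (horizontal axis, median window at 0) against the number of protein-coding windows (vertical axis), for ORF and TSS windows, with plus-strand and minus-strand genes drawn separately. In the TSS panel the plus-strand windows, at gene starts, lie around a median of 1.04 and the minus-strand windows, at 3′ ends, around −1.55.

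Within a gene the mark was concentrated at the start. Among 401 plus-strand genes of 1 exon with ORF windows between 1600 and 2400 bp, the 400 bp at the start were 20.2% of the window and held a median 27.0, 28.3 and 30.5% of its H3K4me3 reads in replicates 1 to 3. The same stretch held only 18.1, 14.5 and 12.8% of the H3 reads, so nucleosomes were thinner there while the mark was denser. At the 3′ end of 424 minus-strand genes of that size, 20.0% of the window held 8.4, 5.2 and 5.4% of the H3K4me3 reads and 20.6, 20.0 and 19.9% of the H3 reads. All 3 H3K4me3 libraries lay above all 3 H3 libraries at the start and below them at the 3′ end. H3K9 acetylation, another mark of active chromatin, was also dense at the start, with 23.9 to 27.5% of its reads, and held 18.6 to 20.0% at the 3′ end. RNA polymerase II phosphorylated on serine 5 (S5 here), the form found early in transcription, held 15.5 to 17.8% at the start and 21.3 to 21.9% at the 3′ end. In Q cells the H3K4me3 shares at the start were 15.8, 18.1 and 19.8%, beside 16.4, 16.8 and 17.6% for H3.

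**Figure D2:**
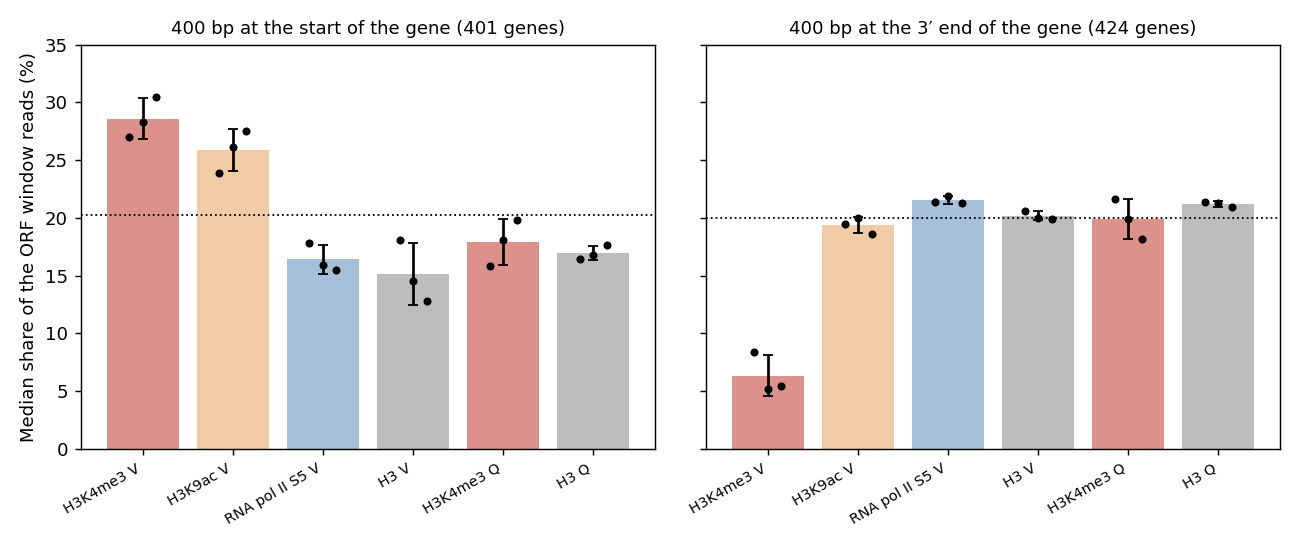
Share of a gene's ORF-window reads (percent, vertical axis) that fell in the 400 bp at the gene start (401 genes) or at the 3′ end (424 genes), for 1-exon genes with windows of 1600 to 2400 bp. Each point is the median over genes in 1 library, and the line marks the share of length. The H3K4me3 libraries of V cells lie at 27.0 to 30.5% at the start and at 5.2 to 8.4% at the 3′ end.

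Of the 8 highest gene-start windows 4 belonged to ribosomal protein genes. At rpl13, which encodes a protein of the large ribosomal subunit (chromosome I, 1710936 to 1711336, in the coordinates of the files), the H3K4me3 values were 967, 659 and 579 and the H3 values 296, 271 and 238 in replicates 1 to 3. The centred log2 ratio was 2.03 (SE 0.24, limma adjusted p = 6.42e-05). At hht2, a histone H3 gene (chromosome II, 1364841 to 1365241), the values were 698, 518 and 481 for H3K4me3 and 243, 217 and 179 for H3, a log2 ratio of 2.01 (SE 0.13, limma adjusted p = 4.94e-06). H3K4me3 and H3 values carry separate size factors, so the 2 raw levels are not set against each other and only the centred ratio is read. At rps1501, a small-subunit protein gene with a HomolE match in the sequence above, H3K4me3 read 735, 505 and 485 and H3 read 250, 213 and 217, a ratio of 1.93. At rps403, with a HomolD match, H3K4me3 read 695, 562 and 526 and H3 read 248, 244 and 243, a ratio of 1.87. The remaining 4 of the 8 highest were rps902 at 1.88, ykt6, a SNARE of vesicle fusion, at 1.86, eap1 at 1.86 and pre10, a proteasome core subunit, at 1.85. The 8 ratios ran from 1.85 to 2.03, a range narrower than the SE of 0.26 at pre10, so their order is not resolved.

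The 8 lowest gene-start windows were not of one kind. At SPBPB21E7.10 (chromosome II, 61162 to 61562) the H3K4me3 values were 28.2, 7.99 and 16.5 and the H3 values 245, 314 and 337, so that H3 was plentiful and the mark nearly missing. Its log2 ratio was −3.55 (SE 0.63, limma adjusted p = 0.000715), 11.7-fold below the median window. The centre of this window lies 134 bp before the RefSeq start, and the window overlaps SPBPB21E7.11 on the minus strand, whose TSS window gave −3.50. At fah1, in the same subtelomeric region, H3K4me3 read 18.8, 14.2 and 13.4 and H3 read 239, 286 and 299, a ratio of −3.47. The RefSeq start of fah1 lies outside its window. At meu18, a gene known for induction in meiosis, H3K4me3 read 31.3, 14.2 and 22.8 and H3 read 285, 360 and 387, a ratio of −3.30. At mde7, whose name comes from its dependence on the meiotic regulator Mei4, H3K4me3 read 56.3, 24.0 and 24.4 and H3 read 365, 466 and 571, a ratio of −3.19 (SE 0.44, limma adjusted p = 0.00017). In all of these H3K4me3 V replicate 1, the shallow library, was the highest of the 3. The others were SPAPB1A11.03 at −3.23, SPAC869.03c at −3.18, SPBC1289.14 at −3.16 and SPAC56F8.12 at −3.13. SPAPB1A11.03 (chromosome I, from 2984239) and SPAC56F8.12 (chromosome I, from 1146633) lie far from the chromosome ends. At mel1, an alpha-galactosidase gene shown above, H3K4me3 read 53.2, 22.2 and 22.8 and H3 read 314, 385 and 417, a ratio of −2.97 (SE 0.48, limma adjusted p = 0.000421).

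**Figure D3:**
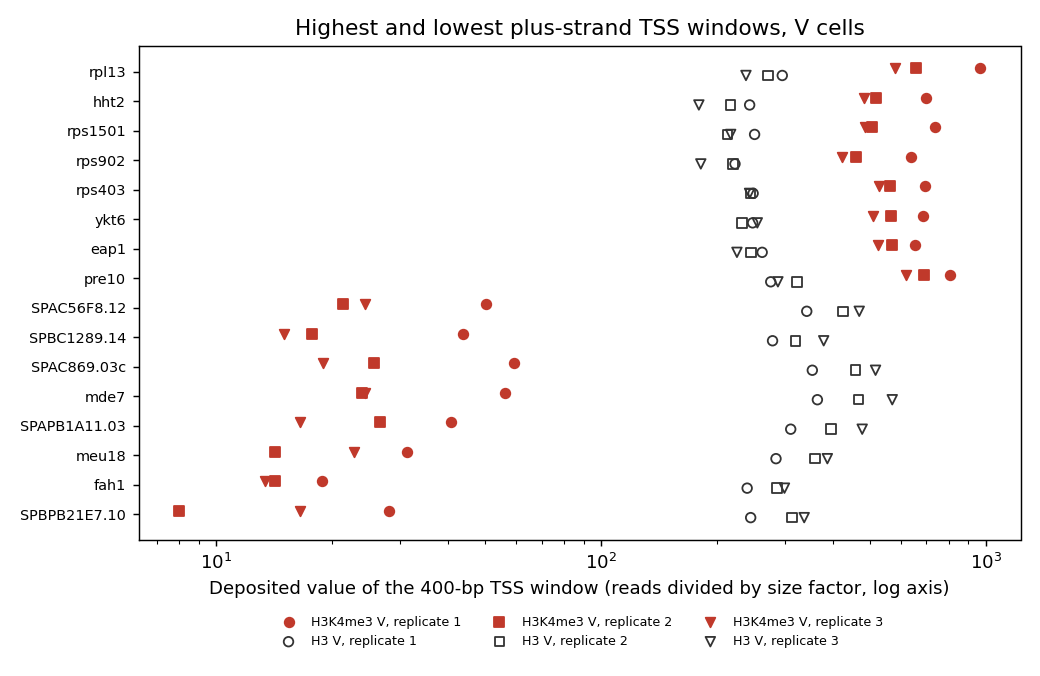
Deposited values (reads divided by size factor, log axis) of the 8 highest and 8 lowest plus-strand TSS windows in V cells, each point 1 library of H3K4me3 or H3. At rpl13 the H3K4me3 points lie at 579 to 967 and the H3 points at 238 to 296, while at SPBPB21E7.10 they lie at 7.99 to 28.2 and 245 to 337.

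At the gene start, windows called above and windows called below differed mostly in H3K4me3 and less in H3. Over the 1319 plus-strand TSS windows called above, the median H3K4me3 value was 372, 364 and 348 in the 3 libraries and the median H3 value 234, 213 and 201. Over the 218 called below, H3K4me3 was 62.6, 30.6 and 28.4 and H3 was 269, 289 and 308. H3 was thus higher at the starts without the mark in every replicate. Over the ORF the difference lay mostly in H3. The 927 plus-strand ORF windows called above had median H3K4me3 values of 617, 625 and 626 and H3 values of 397, 347 and 334, and the 256 called below had 396, 250 and 240 in H3K4me3 and 1695, 1761 and 1813 in H3. ORF values are sums over windows of unequal length. All these medians describe windows that the ratio itself sorted.

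Over ORF windows the highest ratio was that of pre10 (chromosome III, 990427 to 990915), with H3K4me3 at 981, 850 and 816 and H3 at 345, 372 and 318, a log2 ratio of 2.07 (SE 0.11, limma adjusted p = 0.00025). The next 7 coding genes were sap10 (2.03), rpp101, an acidic protein of the ribosomal stalk (2.01), smb1, an Sm protein of spliceosomal snRNPs, gar1, of the box H/ACA snoRNPs, eap1, rpl14 and pmt3, the SUMO gene of this yeast. Among other kinds of gene the snoRNAs snoR39b (1.90) and snR48 (1.88) and mrp1, the RNA of RNase MRP (1.83), were highest. The lowest coding window with ample reads was SPBPB21E7.10 at −3.39. SPBPB21E7.11, which overlaps it, followed at −3.20, with H3K4me3 at 141, 49.5 and 46.9 and H3 at 974, 1090 and 1105. The others were trk2, a potassium transporter, at −3.12, SPAC869.04 at −3.05, grt1 at −3.05 and SPBPB8B6.02c at −3.03. The windows of wtf4, a meiotic driver at −3.40, and cox1101, at −3.14, also ranked among the 8 lowest, but each has a near-identical copy elsewhere in the genome and few reads (H3 at 46.6, 45.0 and 49.2 for cox1101), so that their values are uncertain. The cox1101 antisense window held the same reads as cox1101.

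The ORF ratio moved with the length of the window and the exon structure. Among plus-strand genes of 1 exon the median log2 ratio was 0.71 for windows of 800 to 1600 bp, 0.14 for 1600 to 2400 bp, −0.35 for 2400 to 4000 bp and −0.93 above 4000 bp. Minus-strand genes of 1 exon gave 0.68, 0.14, −0.34 and −0.90 in the same order. The shortest windows, up to 800 bp, departed from this pattern, with a median of −0.23 over 43 plus-strand genes and 0.62 over 23 minus-strand genes. In genes of several exons the ORF window stopped after the exon with the lowest coordinate. Such plus-strand windows up to 800 bp, which hold the gene start and little of the body, had a median of 1.46 with 719 of 890 called above. Minus-strand windows of that kind, at the 3′ end, had a median of −0.32 with 57 of 293 called above. A high or low ORF ratio therefore describes the part of the gene that the window covers. Over all plus-strand coding genes 927 of 2498 ORF windows were called above (37.1%) and 256 below (10.2%). Of the 2490 plus-strand coding genes tested in both tables, 688 were called above in both and 144 below in both, while 27 were below over the ORF and above at the start.

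Ribosomal protein, core histone and RNA polymerase II genes had large shares of windows called above. Their ORF windows held median H3 values of 571, 771 and 315, against 1014 over all windows. Plus-strand coding windows of several exons were called above in 66.9% of cases, and in 80.8% of those up to 800 bp. The part of window length and exon structure in the ORF counts was not tested. Of 138 cytosolic ribosomal protein genes, 133 were called above over the ORF, against 19.7% of all windows, and none below, with a median log2 ratio of 1.54. The 5 that were not called all lay on the minus strand: rpp0 at −0.92, called below without replicate 1 (−1.01), rpl1202 at 0.63, rpl3002 at 0.89, rpl702 at 0.95 and rpl302 at 0.97. At their starts, 64 of 70 plus-strand ribosomal protein genes were above, against 53% of all plus-strand starts, with a median of 1.55. The pair of genes for ribosomal protein L27 gave ORF ratios of 1.52 at rpl2701 and 1.90 at rpl2702. Of 9 core histone genes 6 were called above over the ORF, and hhf1 (0.78), htb1 (0.79) and hht1 (0.91) were positive without passing the log2 threshold, which hht1 passed without replicate 1 (1.01) and under scaling by library totals (1.002). All 4 histone genes of the plus strand were above at the start, with hht1 at 1.49, hhf3 at 1.61, htb1 at 1.69 and hht2 at 2.01. Of 11 RNA polymerase II subunit genes 8 were above over the ORF and the same 8 at the start, among them rpb1 at 1.69 over the ORF and 1.46 at the start. Those 8 lie on the plus strand, where 37.1% of all coding ORF windows and 53% of all coding starts were called above. The 3 others, rpb3, rpb9 and rpb10, are minus-strand genes.

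Further lists of growth genes were compared at the start and over the ORF on the plus strand, where 53% of all coding starts and 37.1% of all coding ORF windows were called above. Of 51 plus-strand genes of ribosome biogenesis, 39 were called above at the start and 1 below (median 1.32), and 20 were above and 2 below over the ORF (median 0.49). Of 26 plus-strand genes of amino acid biosynthesis, 19 were above at the start and 1 below (median 1.27), and 5 were above and 1 below over the ORF (median 0.25). All 4 plus-strand genes of translation elongation factors were above at the start and 1 over the ORF. Of these, tef102 and eft202 have further gene copies (tef101, tef103 and eft201). Their H3 over the ORF was low, at 331, 274 and 245 and at 359, 304 and 248, so that their values are uncertain. At tef3, the fungal elongation factor 3, H3 over the ORF was 3060, 3432 and 3463. Its ratio was 1.65 at the start and 0.03 over the ORF. The proteasome went the other way. Of its 16 plus-strand genes 11 were above and 2 below at the start (median 1.27), and 13 were above and none below over the ORF (median 1.50). Its plus-strand ORF windows held a median H3 value of 374, against 831 over plus-strand coding genes. Of all plus-strand coding windows of several exons up to 800 bp, 80.8% were called above. The part of window length and exon structure in these ORF shares was not tested. The lid subunit gene rpn6 was far below at the start, at −2.75. Mitochondrial ribosomal proteins were close to the share of all coding starts, with 12 of 19 plus-strand starts above (63.2%) and none below, and 9 above over the ORF (47.4%). Glycolysis and fermentation was divided, with 3 of 7 plus-strand starts above and 3 below. There fba1 (1.71), tpi1 (1.51) and eno101 (1.33) were above at the start, whereas adh1, the main alcohol dehydrogenase, was below at −1.61 (SE 0.62, limma adjusted p = 0.0351), hxk2, a hexokinase, at −1.50 and gpd3, a second glyceraldehyde-3-phosphate dehydrogenase gene, at −1.47.

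**Figure D4:**
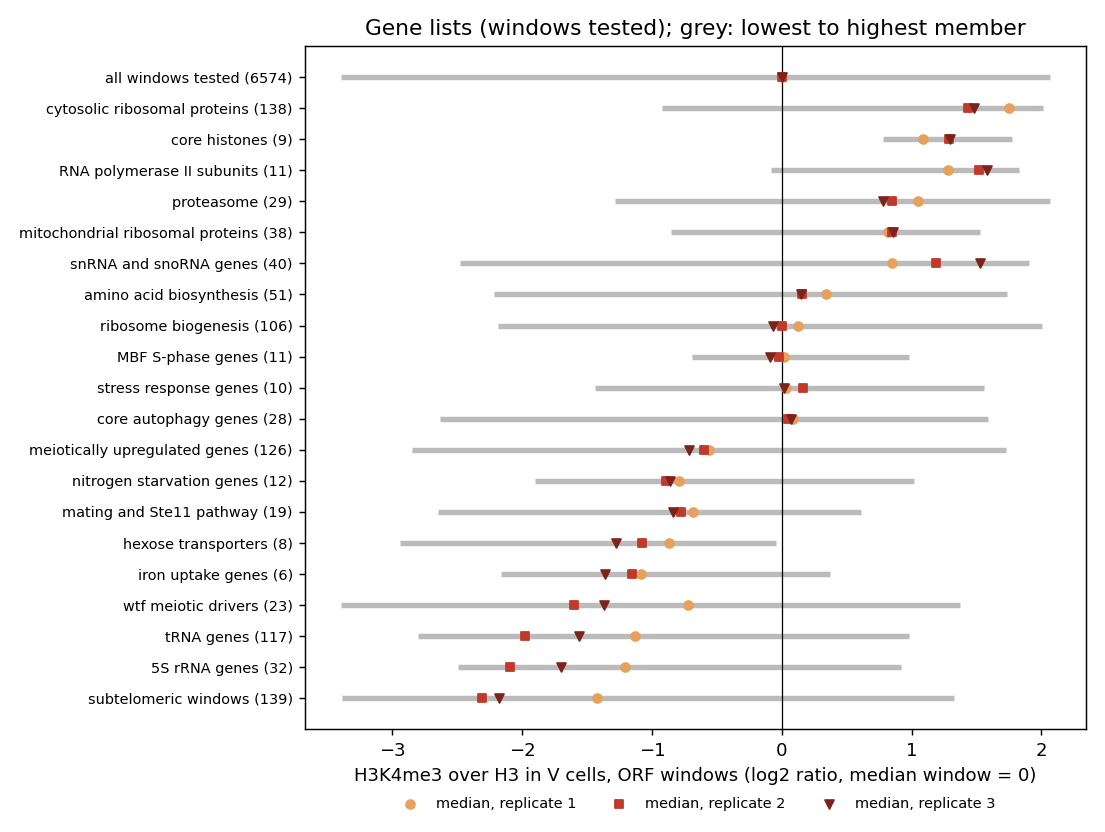
Median log2 ratio of H3K4me3 over H3 in V cells over the ORF windows of each gene list (horizontal axis, median of all windows at 0), with 1 marker per replicate pair and a grey bar from the lowest to the highest member. Cytosolic ribosomal proteins lie at 1.44 to 1.75 in the 3 pairs and subtelomeric windows at −2.31 to −1.42.

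Lists of genes used outside growth differed among themselves. Of 126 genes named mug or meu for their induction in meiosis, 48 were called below over the ORF, against 20% of all windows, and 8 above, with a median of −0.56. Of 19 genes of mating and the Ste11 pathway 7 were below over the ORF and none above: the M-factor pheromone genes mfm3 (−2.65) and mfm1 (−1.72), their exporter mam1 (−1.03), the agglutination protein gene mam3 (−1.41), the meiotic regulator mei2 (−1.39), rgs1 (−1.14) and ste11 itself (−1.05), the transcription factor of the pathway. At the start mfm3 (−2.82), mfm1 (−1.95) and rgs1 (−1.31) were also called below. There ste11 read 0.85 and did not pass the threshold, and gpa1, the pheromone-coupled G protein, was above at 1.50. Of 12 nitrogen starvation genes 5 were below over the ORF: isp5 (−1.90), isp3 (−1.84), isp4 (−1.40), isp7 (−1.16) and the ammonium transporter amt3 (−1.62). At the TSS windows of that list 4 were above and 5 below, against 27.7 and 35.7% of all TSS windows. Those above were plus-strand starts: the ammonium transporters amt1 (1.41) and amt2 (1.44), isp6, a vacuolar serine protease (1.10), and fnx1 (1.20). Plus-strand starts called below were isp3 (−2.85) and isp5 (−2.06). The windows of amt3, isp4 and isp7, also below, lie at the 3′ ends of minus-strand genes and do not describe their starts. The amino acid permease gene aap1 passed the threshold over the ORF at 1.02, and lost the call without replicate 2 (0.98), without replicate 3 (0.95) and when centred on protein-coding windows (0.979). Other lists of this kind lay near the shares of all ORF windows. Of 10 meiotic genes whose transcripts Mmi1 removes in growing cells 2 were above and 1 below over the ORF, and of their 5 plus-strand starts 3 were above and none below (median 1.03), with mcp7 at 1.03 losing its call without replicate 3 (0.95) and under library totals and protein-coding centring (0.845 and 0.844). Of 28 core autophagy genes 6 were above and 5 below over the ORF.

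Transporters for sugar and iron differed among themselves. The counts in these short lists stand beside 19.7% of all ORF windows called above and 20% called below. Of 8 hexose transporters, ght7 (−2.94), ght3 (−2.90), ght1 (−2.68) and ght5 (−1.24) were below over the ORF. The remaining 4 read −0.88 at ght2, −0.73 at ght4, −0.53 at ght6 and −0.05 at ght8. ght5 is the main glucose transporter of growing fission yeast, and its start window read −0.29 (SE 0.14, limma adjusted p = 0.088). At ght3 the start window read 62.6, 21.3 and 21.3 in H3K4me3 and 290, 321 and 322 in H3, a ratio of −2.69. In the iron uptake list str3 (−2.16), the ferric reductase frp1 (−1.70), the multicopper oxidase fio1 (−1.35) and str1 (−1.05) were below over the ORF. Without replicate 3 str1 read −0.99 and under scaling by library totals −0.95, and lost its call in both. The permease fip1, which works with fio1, read 0.37. Stress response genes had 2 of 10 members on each side, with gpx1, a glutathione peroxidase, at 1.27 and ctt1, catalase, at −1.44. The 11 genes of the MBF S-phase list, which peak at the start of DNA replication, lay between −0.69 at yox1 and 0.98 at rad21, inside the log2 threshold on both sides. Without replicate 1 and under scaling by library totals rad21 read 1.08 and passed it.

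The genes that encode the H3K4 methyltransferase complex were spread around the median over the ORF, with 1 of 8 called above and 1 below (median −0.38). Over all ORF windows the shares were 19.7% above and 20% below. The catalytic subunit gene set1 read −0.77 (SE 0.08, limma adjusted p = 0.000633), with H3K4me3 at 1149, 1167 and 1257 and H3 at 3091, 3453 and 3484. It did not pass the log2 threshold, and its window is one of those above 4000 bp. The subunit genes swd1, ash2, sdc1 and spf1 read −0.87, −0.71, −0.05 and 0.07. swd2 was called below at −1.11, and without replicate 3 it read −0.999 and lost its call. Of the plus-strand members, shg1 was called above over the ORF at 1.20 (limma adjusted p = 0.00257) and swd3 read 0.69. Both were called above at the start, swd3 at 1.65 and shg1 at 1.02. The call of shg1 at the start was lost under 7 alternatives: without replicate 2 (0.999), without replicate 3 (0.961), under DESeq2 (0.992), with a pseudocount of 5 (0.994), with no filter (0.993), under library totals (0.828) and when centred on protein-coding windows (0.827).

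Genes transcribed by RNA polymerase III lacked the mark relative to H3. For comparison, 19.7% of all ORF windows tested were called above and 20% below. Of 117 tRNA windows 91 were called below and none above, with a median of −1.56 and pair medians of −1.13, −1.98 and −1.56. Of 32 tested 5S rRNA windows 22 were below and none above, with a median of −1.74. Most of each such window is flanking DNA, and members of both families are near-identical, so that reads may have been placed on any copy. Among snRNA and snoRNA genes, most of which RNA polymerase II transcribes, 24 of 40 were above and 6 below (median 1.23). Their windows too include flanks of 200 bp, and snoR39b lies in a run of windows called above between rpl701 and rps1402. What part neighbouring genes had in these ratios was not tested. Of 1281 windows of non-coding RNA genes 148 were above (11.6%) and 294 below (23%), the latter near the share of all windows. Their median was −0.04, and its sign changed with the scaling. They overlap coding genes in many places and share their reads.

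The regions near the chromosome ends carried little of the mark. Of 139 tested windows within 100000 bp of the outermost window of chromosome I or II, 97 were called below over the ORF and 3 above. That is 69.8% below, against 20% of all ORF windows. The median was −1.88, with pair medians of −1.42, −2.31 and −2.18. The 3 above were fex2, SPAC922.04 and SPNCRNA.1692, at 1.31 to 1.33, named after their values were seen. Windows called below also lay next to each other: 20 runs of at least 5 neighbouring windows were all below, and 8 such runs were all above. The longest had 23 windows on chromosome I (5495070 to 5556968), 16 of them coding, with a median of −2.71. It included mel1, hry1 (−2.96), the sulfate transporter gene sul2, yhb1, the flocculin gene pfl9 and gdt1. A run of 17 windows near the left end (66019 to 105153) included ght3, str3, shu1 and isp3. On chromosome II a run of 9 (57936 to 69052) held eno102 (−2.30), SPBPB21E7.02c (−2.90), SPBPB21E7.10 and SPBPB21E7.11. The runs above the median were shorter, with at most 6 windows, and one of them (chromosome I, 1708528 to 1713271) held paf1, rps1602 and rpl13. Neighbouring windows can overlap, so these runs are a description. Of 23 tested wtf windows 13 were below (56.5%), with the uncertainty of near-identical copies stated above.

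The ratio at the gene start was higher where S5 polymerase was higher. The 2490 plus-strand coding TSS windows were ordered by their mean S5 value in V cells and divided into 5 groups of 498. The median ratio was 0.26, 0.98, 1.16, 1.21 and 1.33 from the lowest to the highest group. The share called above was 16.3% in the lowest group and 71.1% in the highest, and the share called below 20.9 and 4.6%. Most of the difference lay between the lowest group and the rest. Spearman's rho was 0.44 across windows, which share libraries and neighbours and are not replicates. Ordered by H3K9ac, the lowest group had a median of 0.83 and the highest 1.02 (rho 0.11), and ordered by H2A.Z 0.97 and 1.10 (rho 0.11). The share called below was 21.5% in the lowest group of H2A.Z and 1.2% in the highest. S5 and the mark were not tied at every gene. In the highest S5 group 23 windows were called below, among them scw1 at −2.64, pac2 at −2.38, med15 at −2.37 and nmt1 at −2.26, and in the lowest group 81 were called above, among them SPCC1919.04 at 1.64 and lto1 at 1.47. These genes were picked after their values were seen. At nmt1, the thiamine-repressible gene of thiamine synthesis, H3K4me3 read 78.2, 30.2 and 27.6 and H3 read 380, 142 and 507, so that H3 itself varied between replicates.

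**Figure D5:**
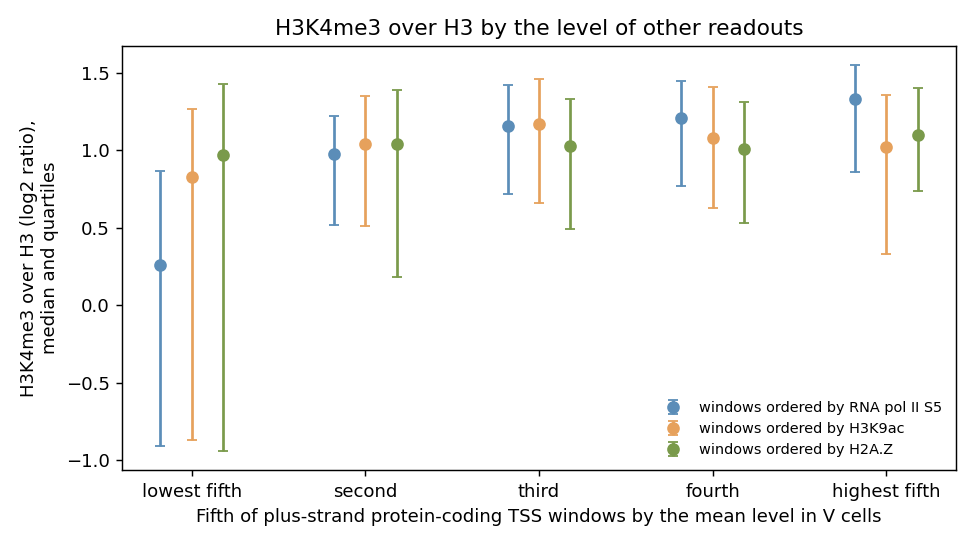
Median log2 ratio of H3K4me3 over H3 at plus-strand coding gene starts (vertical axis, with quartiles) in each of 5 groups of 498 windows ordered by the mean V-cell level of RNA pol II S5, H3K9ac or H2A.Z (horizontal axis). The medians go from 0.26 to 1.33 along the S5 groups and from 0.83 to 1.02 from the lowest to the highest H3K9ac group.

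The ribosomal protein motifs were counted in the promoters of each class of gene start. Within 250 bases before the RefSeq gene start, HomolD was found in 4.32% of the 1319 plus-strand genes called above at the start, in 0.839% of those called neither way and in none of the 218 called below, against 2.66% of all 5039 promoters. HomolE was found in 2.05, 0.105 and 0% and in 1.23% of all promoters. Ribosomal protein genes held most of these matches: 63.8% of them had HomolD and 29.7% had HomolE. Without them the share with HomolD among genes called above was 1.35%. The other shares given still include ribosomal protein genes, so this one has no matching background. TATAAA was found in 41.1% of promoters called above, 48.7% of those called neither way, 45.4% of those called below and 44.5% of all. The median GC content was 32.8, 31.6 and 32.8% in the 3 classes. A match is a description of the letters.

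The mark was next set against other readouts of V cells directly, without H3. Against H3K9ac, 723 ORF windows (11%) were called higher in H3K4me3 and 1320 lower (20.1%), and 1679 TSS windows (25.6%) higher and 1988 lower (30.3%). The last count rested on all 3 pairs and was 1239 without replicate 2 and 962 without replicate 3. Of 138 ribosomal protein genes 103 were higher in H3K4me3 than in H3K9ac over the ORF and none lower (median 1.22), while 109 of 117 tRNA windows and 109 of 140 subtelomeric windows were lower. Against S5, 853 ORF windows (13%) were higher and 1109 lower (16.9%), and 1731 TSS windows (26.4%) were higher and 2121 lower (32.4%). Ribosomal protein genes did not stand apart there, with none higher and 1 lower over the ORF and a median of 0.27. The phosphate genes pho1 and pho84, an acid phosphatase and a phosphate transporter, were high in S5 for their mark, with H3K4me3 lower than S5 by log2 differences of −2.42 and −2.49 over the ORF. The nitrogen starvation list had 7 of 12 members lower in H3K4me3 than in S5 and none higher. prp19, a splicing factor, was on the other side, at 2.06.

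In Q cells the genes that carried or lacked the mark during growth were no longer far apart. The 1293 ORF windows called above in V cells had a median ratio of 1.43 in V and 0.20 in Q, and the 1315 called below had −1.69 in V and −0.11 in Q. Sorting windows by their V ratio favours medians closer together in Q. The difference of the ratio, Q minus V, was called higher in Q at 1219 ORF windows (18.5%) and lower at 1067 (16.2%), and at 2334 (35.6%) and 1467 (22.4%) TSS windows. Without replicate 1, whose Q libraries of H3K4me3 and H3 could not be told apart, the counts were 1296, 1053, 2436 and 1079. Without replicate 2 the count of TSS windows higher in Q was 1369. The correlation of log2 values between H3K4me3 and H3 across ORF windows was 0.998, 0.992 and 0.98 in the Q pairs and 0.768, 0.671 and 0.66 in the V pairs. What part the growth state and what part the likeness of these Q libraries to H3 had in the difference was not tested.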

How the data were processed

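The values were deposited as signal: ChIP-seq reads per window that the authors divided by a size factor for each library, per table, after alignment with BWA 0.7.17 (bcl2fastq 2.20.0.422, SAMtools 1.17, deepTools 3.3.2 per the labels) to build ASM294v2. DESeq2 with removal of batch effects is named for the authors' own comparisons, whose log2 fold change and p-value columns were not used. Dividing the values by their smallest step gave whole reads in all 78 columns used, with a largest deviation of 7.6e-11. Of 16 tables deposited, those used here number 13, and 18 sample columns in the rest were not used. The model for the 6 V libraries used log2(value + 1), replicate number as a term and the variance trend of limma 3.58.1 in R 4.3.3. A window was tested if 3 or more of the 6 libraries reached a value of 10. edgeR 4.0.16 and DESeq2 1.42.0 on the whole reads, pseudocounts of 0.5 and 5, an H3 minimum of 50, no filter, other scalings and each replicate left out were alternatives. On data simulated with 200 windows changed by 2 on the log2 scale and a dispersion of 0.02, limma recovered 200 in each table for this comparison. It made 1 false call over ORF windows. Far more windows were called in the data than were changed there, so this recovery does not measure how reliable the calls are. The libraries are biological triplicates per the study's methods.

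Named genes were the 8 highest and 8 lowest coding windows called with the same sign in all pairs, the 3 highest and lowest of other kinds, the highest, middle and lowest of each list, all members of lists of 10 or fewer, genes the study names and the H3K4 methyltransferase complex. Further members named beside their list counts were chosen after their values were seen. hry1 (SPAC869.06c) was added because the identifier in the rule matched no window. The members and the 30 gene lists were chosen with earlier results of these data known. Symbols, strand and exons came from RefSeq ASM294v3 by identifier, which matched 6521 of 6613 windows. Its coordinates are printed for the promoter sequences only.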

Additional observations from a re-analysis of the deposited data

Results flagged for a closer look

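The contrast of Q with V cells drew attention because the ratio of H3K4me3 to H3 differed between the growth states in many windows. Over ORF windows 1219 were higher in Q and 1067 lower, and over TSS windows 2334 were higher and 1467 lower, by limma on the difference of the centred ratios. Of the 1293 ORF windows called above in V cells 1057 were lower in Q, and of the 1315 called below 1216 were higher in Q. Over all ORF windows 16.2% were lower and 18.5% higher. The V ratios that sorted these windows also enter the difference, so its direction was largely set by the sorting. Windows at both ends lay nearer the median in Q. The SD of the ratio over ORF windows, which needs no sorting, was 0.08, 0.16 and 0.26 in Q replicates 1 to 3. In V it was 0.93, 1.24 and 1.27.

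The most extreme windows of V cells moved with the rest. At pre10 the ORF ratio in Q minus V was −1.684, and at rpl13 the TSS ratio differed by −1.759. At SPBPB21E7.10 the difference was 3.418 over the ORF and 3.558 at the TSS window. These genes were taken for their extreme values in V cells, a choice that favours differences toward the median. With replicate 1 of Q cells showing almost no spread, the growth state and the likeness of the Q libraries to H3 cannot be told apart in these values.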

How the results depend on the processing

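Of 92 alternative counts, 89 stayed within 1.5 times the reported one. Leaving out 1 replicate number at a time gave 1199 to 1440 ORF windows above, 1210 to 1424 below, 1722 to 1833 TSS windows above and 1685 to 2478 below. The windows lower in H3K4me3 than in H3K9ac in the TSS table ranged from 962 to 2177, and the TSS windows higher in Q than in V from 1369 to 2436. With no replicate block the counts were 1292 and 1298 over the ORF and 1818 and 2326 in the TSS table. Same-numbered H3K4me3 and H3 libraries deviated together with correlations of 0.16, −0.23 and 0.08 over ORF windows and −0.07, −0.21 and −0.09 over TSS windows, so that the numbers did not pair the samples, and not every library correlated best with its own number. Scaling by library totals moved the median TSS window by −0.19 and gave 2545 windows below, with 34.3% of the calls above in place of 43.7%. It moved the median ORF window by 0.09 and gave 1442 and 1203. Of the single windows named, 30 values lost a call under some alternative, from 9 windows, and 18 gained one, from 12 windows, with no change of direction among them. Of the alternative list medians, 673 moved by less than 1 SD between pairs and 56 by more. Low windows differed most between pairs. At minus-strand coding TSS windows with no other start nearby the medians were −1.31, −2.66 and −2.88 in pairs 1 to 3. What part the low depth of H3K4me3 V replicate 1 had in this was not tested.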
